A study of Homo sapiens with 22 samples.

Results

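The EGFR family was followed as 10 genes, the receptors EGFR, ERBB2, ERBB3 and ERBB4 and the ligands HBEGF, AREG, EREG, TGFA, BTC and NRG1, each taken as the row with that symbol in the single-cell count tables. These were 10 of the 33538 genes counted in the first experiment and 10 of the 36601 genes counted in the second and the third, and every member had a row in each table. The study asked how melanoma cells enter and leave the primed state, a rare state in which untreated cells survive targeted therapy, whereas the other cells are drug-susceptible. The first experiment profiled 12531 untreated cells of WM989 (clone A6-G3), a BRAF-mutant melanoma line, and the second 1449 untreated cells of WM983B (clone E9-D5), another melanoma line. In the third experiment 40021 barcoded WM989 cells came from plates kept for 5 days without treatment (Control), with 5 ng/mL TGFB1, with 4 µM of the TGF-beta receptor inhibitor LY2109761 (TGFBRi) or with 2 µM of the PI3K inhibitor GDC-0941 (PI3Ki), in 2 replicates each. The sample labels of these 2 replicates carry the names Mix and Primed. Chromatin accessibility was measured by ATAC-seq in 12 bulk libraries of untreated WM989, 3 for each sort on surface protein. The sorts were labelled Mix, EGFR-High, NGFR-High, and the double-positive EGFR-NGFR-High. The study's methods list a sort negative for both markers and none named Mix. Elsewhere the study uses mixed for all live cells, so which of these Mix was could not be settled. All WM989 material was 1 clone grown in culture, and the treated plates of a replicate were split from 1 sorted and expanded well.

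EGFR and its relatives are receptor tyrosine kinases of the cell surface that act as pairs. EGFR binds EGF, TGFA, AREG, EREG, BTC and HBEGF, ERBB3 and ERBB4 bind the neuregulins such as NRG1, ERBB4 also binds some of the EGFR ligands, and ERBB2 has no known ligand and serves as a partner. ERBB3 has little kinase activity of its own but recruits PI3K strongly when its partner phosphorylates it. The ligands are made as membrane-bound precursors that proteases of the ADAM group release. In melanocytes and melanoma, ERBB3 belongs to the genes of the SOX10-driven lineage programme, while EGFR is usually low there and is known from melanoma cells that tolerate BRAF inhibition.

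The primed and drug-susceptible labels were those of the deposited cell tables, and they rest on clusters of the same RNA counts. Differences in level between the states are thus given as levels and ratios with no test. A later test, of whether the change with a treatment differs between the states, uses the same labels and shares this limit. Levels are CPM, the UMIs of a gene summed over the cells of a group and scaled to a fixed total of all UMIs (1000000), where a UMI is a counted mRNA molecule tagged near its 3′ end, and they were compared only within a gene. The median cell held 53571 UMIs in the first experiment, 66668 in the second and 16321 in the third. In the first experiment sorting on EGFR and NGFR protein preceded the expansion of some cells, which well held which sort was not given by the labels, and 19 cell barcodes were shared between its 8 capture wells. Each sort was loaded on a pair of wells per the study's methods, so the 8 wells stand for at most 4 cultures in 2 replicates, and counts of wells are not counts of independent samples. In the third experiment 194 barcodes were shared between libraries, and its replicates are called r1 and r2 after the cell tables, because their match to the Mix and Primed names in the sample labels could not be settled. The study's methods describe parallel replicates, and whether these names stand for different starting cells was not settled either. Replicate r2 held more primed cells than r1 in Control and with each treatment. The leukocyte gene PTPRC and the epithelial genes EPCAM and KRT5 were at or near 0 in both states of WM989, whereas the endothelial gene PECAM1 stood at 22.8 CPM in primed WM989 cells (0.183 CPM in the others) with the endothelial cadherin CDH5 near 0.

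In WM989, primed cells carried more EGFR and more of the ligands EREG, AREG and NRG1 than drug-susceptible cells, and less of the receptors ERBB3 and ERBB4. The primed to drug-susceptible ratio exceeded 2 for EGFR and was below 0.5 for ERBB3, and it lay between these bounds for ERBB2 and HBEGF. Over all 13194 genes at or above 1 CPM in at least 1 state, 13.7% exceeded 2 and 7.91% were below 0.5. EREG, AREG and NRG1 reached 1 CPM only in primed cells and ERBB4 only in drug-susceptible cells, so reaching that level already fixed their direction and no count is read from them. TGFA and BTC were under 1 CPM in both states.

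The receptor EGFR stood at 48.1 CPM over 2843 primed cells and at 3.37 CPM over 9688 drug-susceptible cells, where it was 12.5 times higher in primed cells of replicate r1 and 17.7 times in r2. In primed cells of wells 1 to 8 EGFR was at 53.6, 50.4, 25.4, 23.1, 57.8, 54.5, 19.1 and 19.3 CPM, with a median of 37.9 CPM. The lower values were those of wells 3, 4, 7 and 8, in which primed cells were between 6.85 and 9.42% of all cells, against 56.9 to 79.7% in the other 4 wells. The 48.1 CPM pooled over wells is thus weighted to the wells with more primed UMIs, and the part of RNA from other cells of a well, or of the sort on EGFR protein, in this split was not tested. In drug-susceptible cells the wells gave 2.59, 3.66 and 8.39 CPM at the lowest, median and highest. The 2 ranges did not overlap, and the ratio within a well ran from 6.0 to 12.8 with a median of 8.18. EGFR mRNA was spread over many primed cells. Its 9240 UMIs lay in 2222 of the 2843 primed cells, and no cell held more than 32. When each cell was thinned to 10000 UMIs, 35.4% of primed and 3.13% of drug-susceptible cells kept an EGFR UMI, against 78.2% and 14.5% unthinned. Among the 3 primed clusters EGFR stood at 56.9 CPM in cluster 02, 43.4 CPM in cluster 09 and 23.4 CPM in cluster 08, and the 8 drug-susceptible clusters ranged from 1.15 CPM in cluster 05 to 6.53 CPM in cluster 04.

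**Figure D1:**
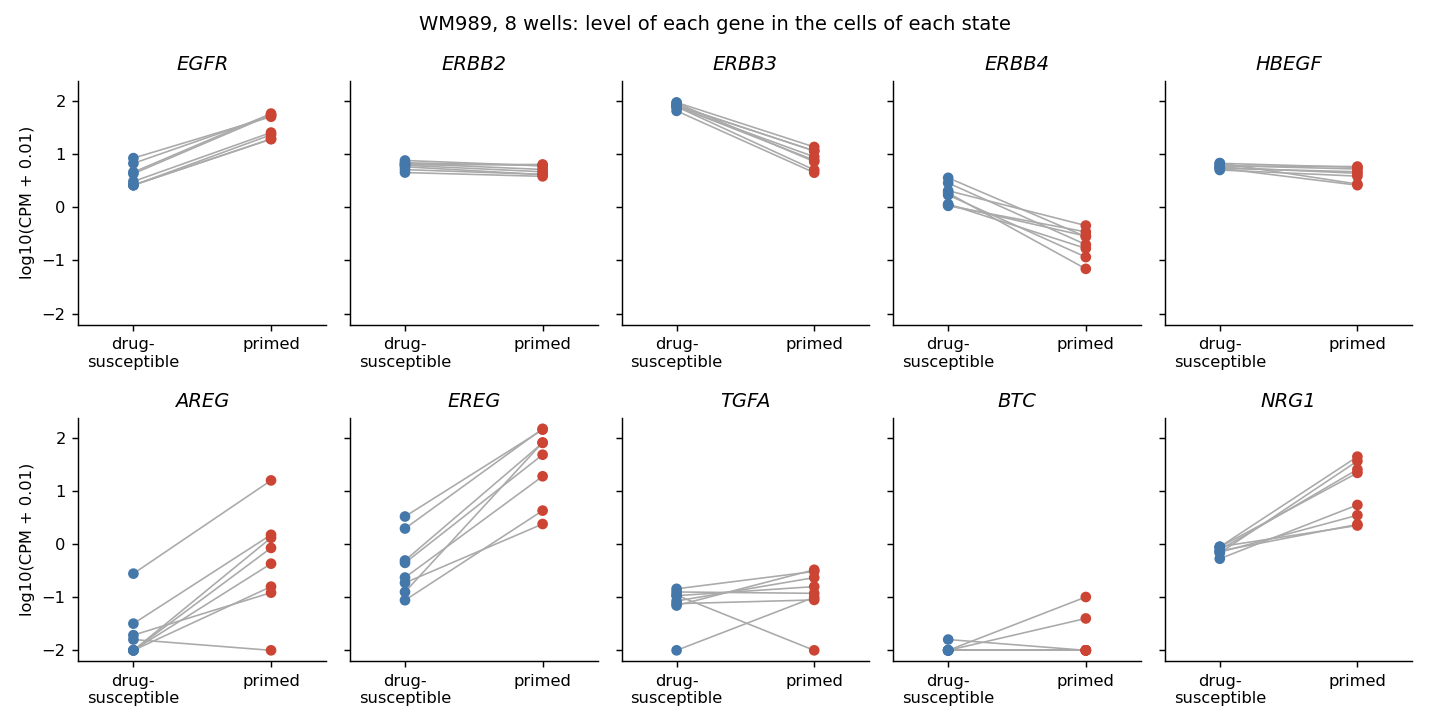
Level of each of the 10 genes in drug-susceptible and primed cells of the 8 WM989 capture wells, as log10 of CPM with a small constant added, 1 line per well. EGFR, EREG and NRG1 were higher in primed cells in 8 of 8 wells, and ERBB3, ERBB4 and HBEGF were lower in 8 of 8.

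The chromatin at the EGFR gene (GRCh38, chr7:55019017-55211628, plus strand) was compared between the sorts as the fold enrichment of peaks called in each library. In sorted bulk cells, a larger share of cells with an open region and more opening per cell cannot be told apart. EGFR protein was among the markers that defined the EGFR-High and EGFR-NGFR-High sorts. If Mix was the sort negative for both markers, the reference was itself chosen for low EGFR protein. Of 20 regions with a peak at EGFR, 10 had one in all 12 libraries and were tested with limma across 78177 such regions of the genome. The region at the start site, chr7:55018530-55019753, had fold enrichments of 5.38, 4.24 and 5.81 in the 3 Mix libraries, 14.5, 14.2 and 14.2 in EGFR-High, 9.54, 9.62 and 7.05 in NGFR-High, and 14.0, 11.3 and 7.94 in EGFR-NGFR-High. Every marker-high library exceeded every Mix library there, and EGFR-High exceeded NGFR-High without overlap. The promoter stretch of 300 bases within this region is shown because, of the 10 tested EGFR regions, only this one differed between EGFR-High and NGFR-High. It lies at chr7:55018767-55019066 on the plus strand (RefSeq, GRCh38.p14), is 75.3% G and C, and holds 3 GC boxes, the letters GGGCGG read on either strand, in capitals.
EGFR promoter: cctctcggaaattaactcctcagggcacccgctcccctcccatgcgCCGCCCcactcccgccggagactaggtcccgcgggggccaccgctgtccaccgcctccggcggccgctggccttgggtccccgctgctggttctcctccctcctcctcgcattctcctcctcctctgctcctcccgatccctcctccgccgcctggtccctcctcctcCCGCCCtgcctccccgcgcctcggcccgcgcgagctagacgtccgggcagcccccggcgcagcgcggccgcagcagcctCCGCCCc
A GC box on either strand was in 45.0% of all 35116 promoter windows of the same length. After centring each library, EGFR-High exceeded Mix at the start by 1.68 on the log2 scale (SE 0.18, limma adjusted p = 0.000281), NGFR-High by 0.74 (adjusted p = 0.0176) and EGFR-NGFR-High by 1.03 (adjusted p = 0.00253). EGFR-High also exceeded NGFR-High by 0.94 (limma adjusted p = 0.0374).

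Inside the gene, the regions called were intronic. The region 113597 bases downstream of the start, chr7:55132614-55133560, had fold enrichments of 4.03, 4.24 and 5.32 in Mix, 7.68, 12.3 and 6.36 in EGFR-High, 10.7, 14.4 and 16 in NGFR-High, and 23.2, 17 and 20.3 in EGFR-NGFR-High. The order of the sorts differed from that at the start, with the double-positive libraries above all others and the Mix libraries below all others. Against Mix it was higher by 1.1 in EGFR-High, 1.57 in NGFR-High and 2.1 in EGFR-NGFR-High on the log2 scale (SE 0.22 each, limma adjusted p = 0.0101, 0.000622 and 7.6e-05). Another pair of intronic regions was also called. The region at 66850 bases, chr7:55085867-55087589, was 0.65, 0.67 and 0.62 log2 units above Mix (limma adjusted p = 0.0354, 0.0181 and 0.0245). At 160962 bases, chr7:55179979-55180905, the differences were 0.63, 1.04 and 0.99 (limma adjusted p = 0.0714, 0.00353 and 0.00409). A separate peak 114616 bases from the start was called in 9 of 9 marker-high and 0 of 3 Mix libraries. The share of all regions with that pattern was not counted. Leaving out any 1 replicate kept the call at the start in EGFR-High and that at 113597 bases in NGFR-High and EGFR-NGFR-High, whereas each other EGFR call was lost in at least 1 such fit.

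Those 3 intronic regions are shown as 300 bases around their peak summits because each holds the AP-1 motif TGANTCA, the site that FOS and JUN proteins bind, in capitals below. The letters are the plus strand of GRCh38, and the motif reads the same way on both strands.
EGFR intronic region, chr7:55086811-55087110: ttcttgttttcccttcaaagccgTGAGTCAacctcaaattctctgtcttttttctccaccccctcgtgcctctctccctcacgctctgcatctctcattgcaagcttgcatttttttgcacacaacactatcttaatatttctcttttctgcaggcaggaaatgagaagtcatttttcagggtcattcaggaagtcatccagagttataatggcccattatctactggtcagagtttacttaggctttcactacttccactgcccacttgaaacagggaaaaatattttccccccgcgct
EGFR intronic region, chr7:55132802-55133101: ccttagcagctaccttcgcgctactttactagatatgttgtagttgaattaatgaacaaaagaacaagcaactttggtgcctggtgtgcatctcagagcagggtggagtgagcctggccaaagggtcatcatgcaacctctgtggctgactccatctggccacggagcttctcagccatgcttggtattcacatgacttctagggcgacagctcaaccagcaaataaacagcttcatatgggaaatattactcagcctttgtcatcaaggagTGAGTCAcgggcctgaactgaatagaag
EGFR intronic region, chr7:55180391-55180690: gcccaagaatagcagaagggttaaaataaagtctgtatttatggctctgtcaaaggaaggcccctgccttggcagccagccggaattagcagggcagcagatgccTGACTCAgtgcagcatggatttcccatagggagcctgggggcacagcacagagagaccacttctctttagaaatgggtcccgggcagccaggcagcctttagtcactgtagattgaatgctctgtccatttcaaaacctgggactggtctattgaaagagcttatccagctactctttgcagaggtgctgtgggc
Windows at the other 7 tested EGFR regions held 0 such motifs. Among untested EGFR regions, those at 46039, 110584, 166945 and 173719 bases held 1 each, with peaks in 11, 6, 11 and 3 libraries. The other untested windows held 0, among them the peak at 114616 bases that no Mix library had. Among all 78177 regions 20.1% of windows held the motif, as did 39.3% of those called higher in EGFR-High, 44.1% in NGFR-High and 51.8% in EGFR-NGFR-High. Among regions called lower in those sorts, it was in 17.3%, 17.8% and 14.8%. The match describes the letters alone, and binding was not measured.

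**Figure D2:**
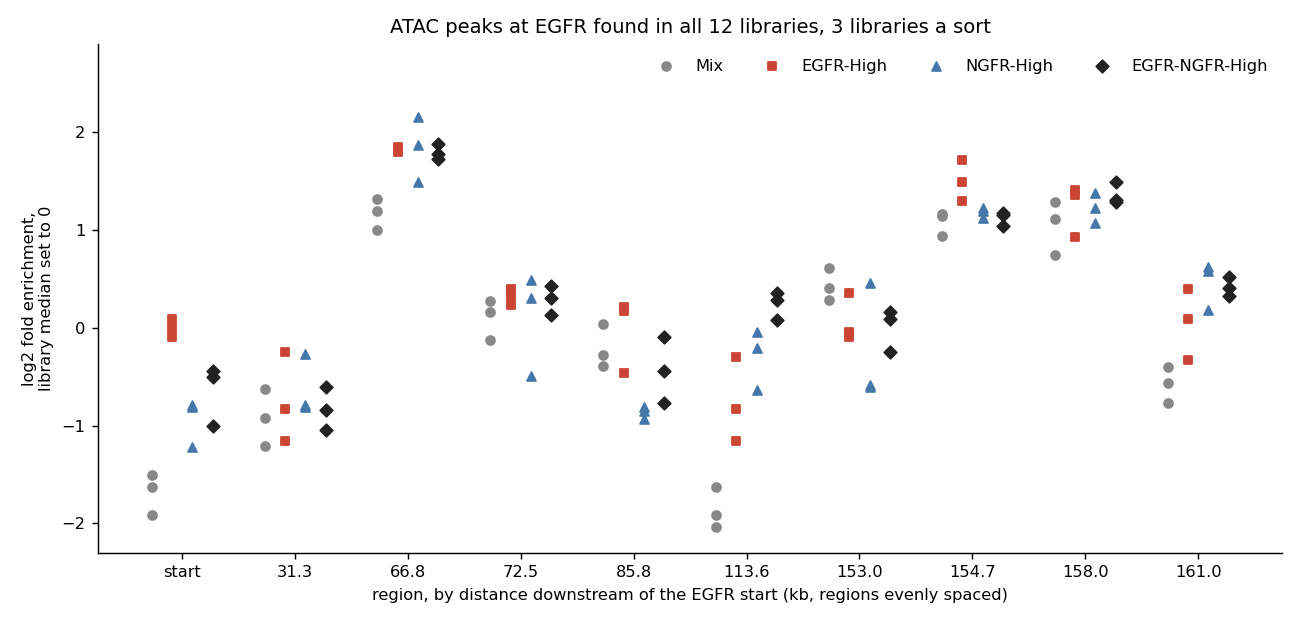
Accessibility of the 10 EGFR regions with a peak in all 12 libraries, as centred log2 fold enrichment by sort, points being libraries, against distance downstream of the start site in kb. The Mix mean lies lowest at the start and at 113597 bases, where the means of EGFR-High and EGFR-NGFR-High, respectively, lie highest.

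The neuregulin receptor ERBB3 went the other way. It stood at 84.5 CPM in drug-susceptible and 7.48 CPM in primed WM989 cells, 11.3 times lower in the primed state. Across the 8 wells the primed level was 4.47, 8.27 and 13.6 CPM at the lowest, median and highest and the drug-susceptible level 65.0, 80.2 and 93.7 CPM, without overlap. After thinning, 6.75% of primed and 55.2% of drug-susceptible cells kept an ERBB3 UMI, against 28.4% and 93.1% unthinned. Cluster 08, the primed cluster with the least EGFR, had the most ERBB3 among primed clusters at 17.1 CPM, against 6.34 CPM in cluster 02 and 4.0 CPM in cluster 09. These cluster values are pooled over wells that differ in both genes, and the part of the wells in them was not tested. Pooled over wells, 2.64% of primed cells, 75 cells, kept a UMI of both EGFR and ERBB3. Among primed cells with EGFR, 7.46% kept ERBB3, and among those without EGFR, 6.37%. In primed cells of wells 1 to 8 ERBB3 was at 7.67, 8.88, 11.5, 11.4, 4.47, 5.03, 13.6 and 7.21 CPM, and primed cells were 56.9, 62.4, 7.87, 6.85, 79.7, 76.9, 9.17 and 9.42% of the wells. The part of RNA from drug-susceptible cells of the same well in these values was not tested.

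ERBB4, another neuregulin receptor, was at 1.69 CPM in drug-susceptible and 0.182 CPM in primed cells, 9.30 times lower, and was lower in primed cells of 8 of 8 wells. Its well medians were 1.77 and 0.229 CPM. ERBB2, the partner without a ligand, stood at 5.58 and 5.18 CPM, a primed to drug-susceptible ratio of 0.929 (95% interval 0.864 to 0.998, counting error only), with well ranges of 4.49 to 7.57 and 3.81 to 6.38 CPM that overlapped. Within wells it was lower in primed cells in 7 of 8, at a median ratio of 0.803.

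EREG, AREG and BTC lie near each other on chromosome 4, and EREG had a wide range between wells. Epiregulin (EREG), a low-affinity EGFR ligand, stood at 0.331 CPM in drug-susceptible and 95 CPM in primed cells. In primed cells the wells from 1 to 8 had 81.0, 79.6, 2.36, 4.23, 146, 141, 18.7 and 47.7 CPM. Wells 3, 4, 7 and 8 were lowest, and in those wells primed cells made up 7.87, 6.85, 9.17 and 9.42% of the cells, against 56.9 to 79.7% in the other 4. In drug-susceptible cells the lowest, median and highest well had 0.0774, 0.328 and 3.27 CPM, so the states overlapped across wells (2.36 against 3.27 CPM) although the primed level was higher in 8 of 8 wells, by 13.5 to 703 times. The 18261 EREG UMIs of primed cells lay in 1309 cells, up to 668 in a cell, and 100 cells held 50% of them. After thinning, EREG was kept by 25.4% of cells in the primed state and 0.217% in the drug-susceptible state, against 46.0% and 1.73% unthinned. By primed cluster EREG was at 110, 98.7 and 34.3 CPM in clusters 02, 09 and 08.

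An intronic region of EREG is shown because peaks were called there in marker-high sorts and in none of the Mix libraries, namely in 2 of 3 EGFR-High, 2 of 3 NGFR-High and 3 of 3 EGFR-NGFR-High libraries, at fold enrichments of 3.78 to 6.45. The share of all regions with such a pattern was not counted. Mix libraries had 213227 to 227382 peaks and marker-high libraries 216252 to 270924, and the part of this in the pattern was not tested. The region was chosen for the pattern. It lies 9435 bases downstream of the EREG start, and the 300 bases around its summits (plus strand, GRCh38) hold 2 AP-1 motifs, TGANTCA, in capitals.
EREG intronic region, chr4:74374558-74374857: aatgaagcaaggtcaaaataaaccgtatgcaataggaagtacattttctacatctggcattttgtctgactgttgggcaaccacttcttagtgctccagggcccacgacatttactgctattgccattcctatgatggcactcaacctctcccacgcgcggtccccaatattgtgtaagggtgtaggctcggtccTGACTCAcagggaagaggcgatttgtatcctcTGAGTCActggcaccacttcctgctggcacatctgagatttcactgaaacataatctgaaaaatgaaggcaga
With peaks in 7 of 12 libraries the region entered no test, and the 1 EREG region that had peaks in all 12 did not pass it in any comparison.

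Amphiregulin (AREG), a growth factor of the same low-affinity kind, was detected in few cells. It had 842 UMIs in primed and 7 UMIs in drug-susceptible cells, 4.38 and 0.0125 CPM. By well the primed level was 0, 0.625 and 15.7 CPM at the lowest, median and highest, and the drug-susceptible level 0, 0.00298 and 0.267 CPM. A single cell held 387 of the 842 UMIs, 46.0%, and this cell was in well 6, the highest well. Well 6 also held the highest drug-susceptible level, and the ratio was 350 over all cells (169 to 872, counting error only) and 209 in replicate r1. After thinning, 1.13% of primed against 0.0103% of drug-susceptible cells kept AREG.

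NRG1, the ligand of ERBB3 and ERBB4, stood at 0.729 CPM in drug-susceptible and 27.0 CPM in primed cells, 37.0 times higher over all cells, with a ratio within a well of 2.52, 17.8 and 54.4 at the lowest, median and highest. Across wells it ran from 2.22 to 43.8 CPM in primed cells with a median of 13.6, and from 0.518 to 0.879 CPM in drug-susceptible cells with a median of 0.745. The ranges did not overlap, and the lowest primed values, 2.22, 2.33, 3.46 and 5.41 CPM, were again those of wells 3, 4, 7 and 8. ERBB3 and ERBB4, the receptors that bind NRG1, were both lower in the state where NRG1 was higher.

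The other 3 ligands stood low or near level. HBEGF, a heparin-binding EGFR ligand and early-response gene, was at 5.6 CPM in drug-susceptible and 4.12 CPM in primed cells, a ratio of 0.735, and lower in primed cells of 8 of 8 wells at a median ratio of 0.805. It was highest in clusters 06 and 07, at 9.65 and 9.52 CPM, and among drug-susceptible cells it was at 7.84 CPM in G2/M, 4.99 in G1 and 4.39 in S phase. TGFA, a high-affinity EGFR ligand, had 29 UMIs in primed and 44 in drug-susceptible cells, 0.151 and 0.0788 CPM, a ratio of 1.92 (1.16 to 3.13, counting error only). BTC, betacellulin, had 5 UMIs in primed and 1 in drug-susceptible cells, too few to rank the states.

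The profile of EGFR over the 11 clusters was described by correlating log CPM over 22 sums, each cluster in each replicate, with 9797 genes. The sums share libraries and the state labels, so the correlations only order genes. The 5 genes most like EGFR were the WNT antagonist SFRP1 (r = 0.985), the calcium-binding S100A3 (0.978) and S100A6 (0.978), CEP19 (0.978) and TCEAL3 (0.975). Within the family, r with EGFR was 0.961 for NRG1, 0.953 for EREG, -0.477 for HBEGF and -0.899 for ERBB3. ERBB3 was closest to TRIM2 (r = 0.989), RNF125 (0.984), the PI3K regulatory subunit PIK3R3 (0.982), the melanocyte-lineage factor SOX10 (0.981) and GYG2 (0.980).

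Genes that act with the family differed between the WM989 states in both directions, to be read against the 13.7% of all genes that exceeded a ratio of 2 and the 7.91% below 0.5. Among receptor inhibitors, 2 of 8 measured genes exceeded a ratio of 2 and 1 fell below 0.5. The feedback inhibitor ERRFI1, which binds EGFR and blocks its kinase, was at 4.96 CPM in drug-susceptible and 177 CPM in primed cells, SOCS5 at 12.3 and 73.2 CPM, and the ubiquitin ligase CBLB at 20.7 and 9.98 CPM. Among other ligands NRG2 was higher in primed cells (2.56 and 18.5 CPM) and NRG3 lower (16.7 and 0.557 CPM), opposite directions within the neuregulins. Among 6 shedding genes the inactive rhomboid RHBDF1 was at 11.1 and 37.3 CPM. Of 9 adaptors 1 exceeded 2, SOS1 (23.3 and 65.5 CPM), and 2 were below 0.5, GAB2 (35.5 and 5.10 CPM), a docking protein for PI3K, and SHC4 (5.55 and 1.06 CPM). In the PI3K arm 2 of 10 genes fell below 0.5 and 0 exceeded 2, with PIK3R3 at 133 CPM in drug-susceptible and 13.8 CPM in primed cells and PIK3CD at 19.1 and 8.68 CPM. Of 14 genes that report ERK output, 6 exceeded 2, with ratios of 5.08 for IER3, 4.54 for PHLDA1 and 3.04 for the AP-1 subunit FOSL1, and 2 fell below 0.5, ETV4 at 0.333 and ETV5 at 0.363.

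In WM983B, 1 library with 731 primed and 718 drug-susceptible cells, the ligands HBEGF, TGFA and NRG1 were higher in primed cells and ERBB3 was not lower. HBEGF was at 15.9 CPM in drug-susceptible and 39.1 CPM in primed cells, TGFA at 1.26 and 3.22 CPM, and NRG1 at 11.8 and 29.7 CPM, ratios of 2.46, 2.55 and 2.51. These 3 of 5 ligands at or above 1 CPM exceeded 2, where 2.87% of 13769 genes exceeded 2 and 1.37% fell below 0.5. No receptor at or above 1 CPM passed either bound. EGFR was low in both states, 2.21 and 3.13 CPM, and its ratio of 1.42 (1.11 to 1.82) lay below the interval of the ratio pooled over wells in WM989 (13.6 to 15.0) and below the ratios within single WM989 wells (6.0 to 12.8). ERBB3 was at 139 and 170 CPM and so slightly higher in primed cells, a ratio of 1.23 (1.19 to 1.27). ERBB2 was at 16 and 28.8 CPM, a ratio of 1.80, and ERBB4 at 0.890 and 0.901 CPM. EREG was at 0.241 and 0.164 CPM, a ratio of 0.679 (0.244 to 1.77), AREG at 1.02 and 1.76 CPM, a ratio of 1.73 (1.22 to 2.47), and BTC at 1.82 and 3.17 CPM, a ratio of 1.75. By cluster, NRG1 was at 31.2, 8.81, 19.2 and 30.3 CPM and HBEGF at 38.2, 13.0, 45.3 and 34.1 CPM in clusters 00 to 03, of which 00 and 02 are primed and 01 and 03 drug-susceptible. Cluster 01 was lowest for both genes, while cluster 03, with 90 of the 718 drug-susceptible cells, stood near the primed clusters and raised the drug-susceptible level behind the ratios. State markers also differed less between the labels in WM983B. The median ratio of the 5 primed-state markers was 2.57 in WM983B and 27.4 in WM989. For the 4 drug-susceptible markers it was 0.369 and 0.0449. The part of this in the smaller ratios of the family was not tested. The intervals cover counting error only, and without a second library the lines cannot be compared by a test.

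**Figure D3:**
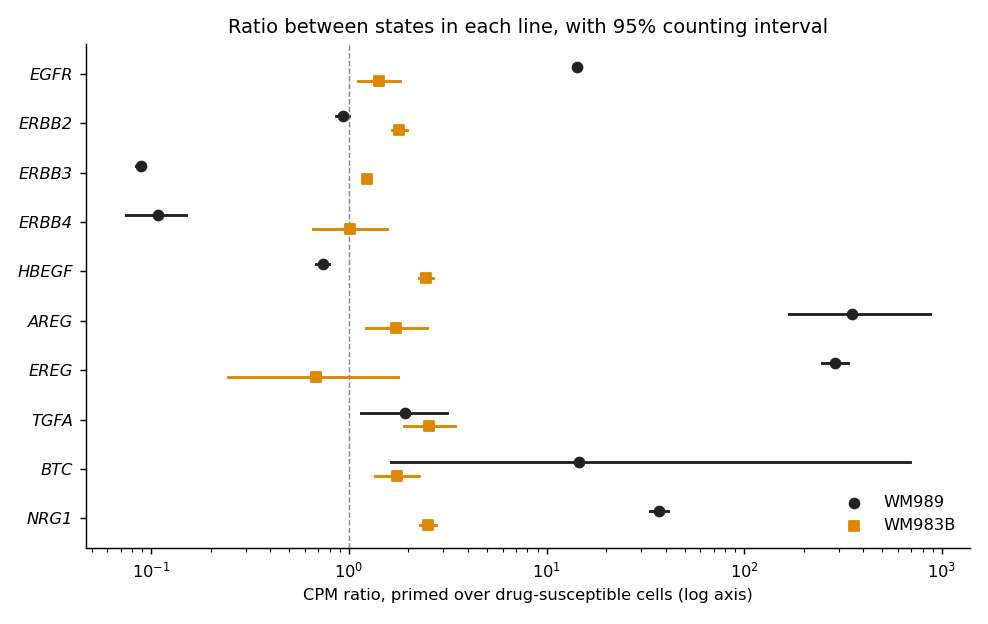
Ratio of the primed to the drug-susceptible level of each gene in WM989 and WM983B on a log axis, with the 95% interval of counting error. EREG lies at 287 in WM989 and 0.679 in WM983B, and ERBB3 at 11.3 times lower in WM989 and 1.23 times higher in WM983B. State markers also differed less between the labels in WM983B.

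The third experiment asked how TGFB1, its receptor inhibitor and the PI3K inhibitor change primed and drug-susceptible cells. Counts were summed per library, for all cells and for each state, and tested with edgeR across all genes with the replicate as a block. The 3 treatments share the same 2 Control libraries. Each group has 2 replicates, and the fit leaves 3 residual degrees of freedom. It adds 18.4, 19.7 and 38.5 prior degrees of freedom, drawn from all genes, in all, drug-susceptible and primed cells. The p-values thus rest mostly on spread shared between genes, and they cover these samples only. Of the 10 members, 9 passed the filter on low counts in all cells (BTC did not), 8 in drug-susceptible cells (not AREG or BTC) and 6 in primed cells (not ERBB2, ERBB4, TGFA or BTC). Primed cells numbered 94 and 165 of 4152 and 3692 cells in the Control replicates, 1577 and 1757 of 5419 and 5615 with TGFB1, 118 and 271 of 5229 and 6273 with TGFBRi, and 25 and 70 of 3862 and 5779 with PI3Ki.

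TGFB1 raised TGFA and EGFR over all cells and lowered NRG1 and ERBB4. With it 3 of 9 members tested rose and 2 fell, where 29% of 18389 genes were called. TGFA was at 0.141 and 0.162 CPM in the Control libraries and 2.05 and 2.11 CPM with TGFB1 (13.5-fold, log2 fold change 3.75, SE 0.24, edgeR adjusted p = 2.9e-11). EGFR was at 1.41 and 1.72 CPM in Control and 5.13 and 6.21 CPM with TGFB1 (3.59-fold, log2 fold change 1.84, SE 0.11, edgeR adjusted p = 2.2e-11). For both genes the treated libraries lay well above the Control libraries. NRG1 fell from 1.55 and 1.45 CPM to 0.788 and 0.755 CPM (log2 fold change -0.97, SE 0.18, edgeR adjusted p = 0.000221), and ERBB4 from 1.36 and 1.12 CPM to 0.776 and 0.743 CPM (-0.72, SE 0.19, edgeR adjusted p = 0.00605). ERBB3 rose from 60.5 and 62.0 CPM to 77.1 and 74.7 CPM (0.29, SE 0.06, edgeR adjusted p = 0.00125). No group overlapped its Control for these 5 genes. With 2 libraries a side and genes picked as called, a lack of overlap, here and below, adds little to the calls. Its share over all genes was not counted. The calls of ERBB3 and ERBB4 were lost without Control replicate r1 (edgeR adjusted p = 0.082 and 0.176), and that of ERBB4 also without TGFB1 replicate r2 (0.0871) and in DESeq2 (0.0527). HBEGF at 6.76 and 9.05 CPM with TGFB1 (6.76 and 6.54 in Control), ERBB2 at 3.89 and 3.98 (4.23 and 4.13), EREG at 0.10 and 0.177 (0.115 and 0.449) and AREG at 0 and 0.0825 (0.0128 and 0.212) did not pass the test. BTC had 2 and 1 UMIs with TGFB1 and 0 in both Control libraries.

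**Figure D4:**
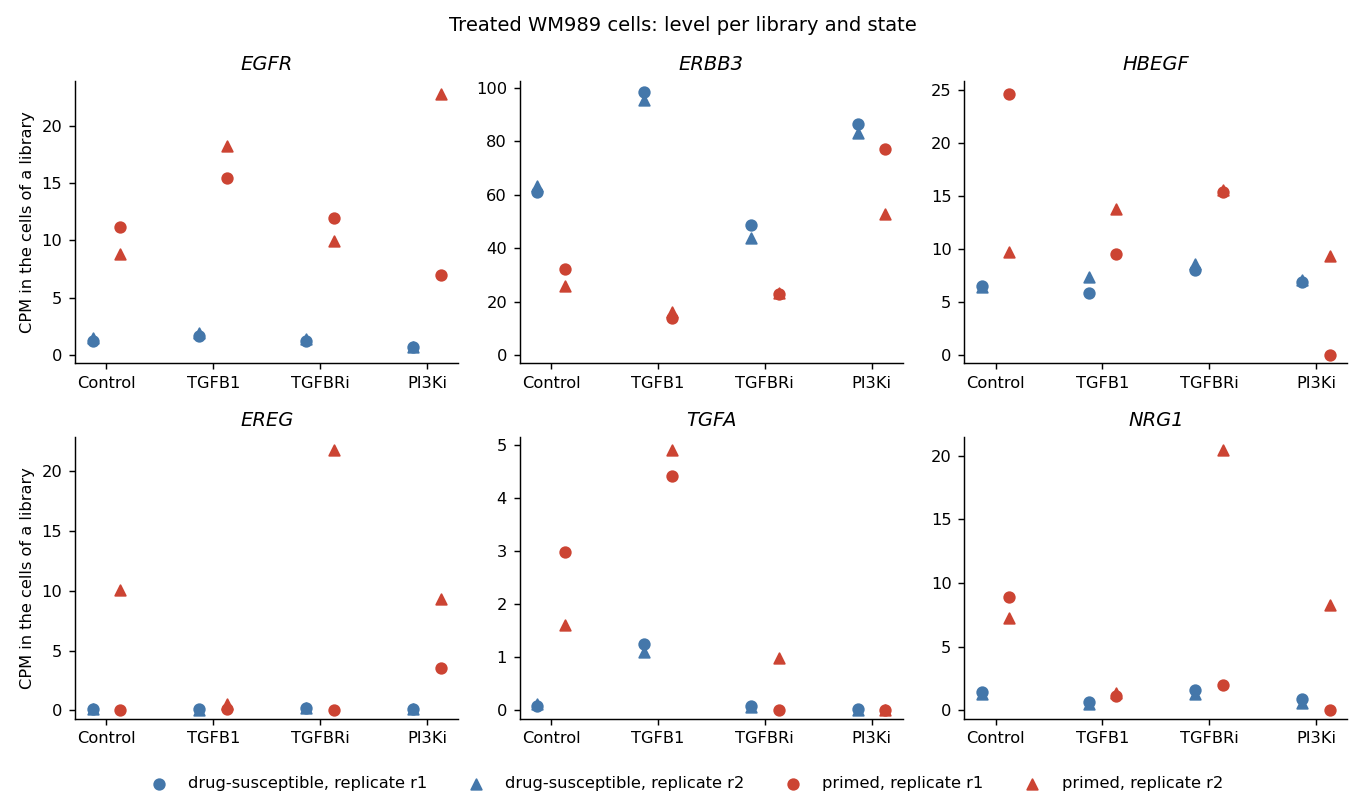
Levels of EGFR, ERBB3, HBEGF, EREG, TGFA and NRG1 in CPM by library, treatment and state, circles for replicate r1 and triangles for r2. TGFA in drug-susceptible cells lies at 1.25 and 1.1 CPM with TGFB1 and below 0.12 CPM in the Control, TGFBRi and PI3Ki libraries.

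Within drug-susceptible cells, where 14.9% of 17914 genes were called with TGFB1, 2 of 8 members rose and 1 fell. The drug-susceptible cells lay in different clusters in these groups, with 3801 TGFB1 cells in cluster 03 and 234 in cluster 00, against 115 and 2971 Control cells, so treatment and cluster cannot be told apart. TGFA was at 0.0912 and 0.116 CPM in Control and 1.25 and 1.1 CPM with TGFB1 (log2 fold change 3.47, SE 0.30, edgeR adjusted p = 9.0e-09). It passed the low-count filter in these cells only through the TGFB1 libraries. Its direction was thus fixed by the filter, and no result is read from its place in the count of members that rose. ERBB3 was at 61.0 and 63.2 CPM and rose to 98.4 and 95.7 CPM (0.63, SE 0.07, edgeR adjusted p = 2.0e-07), and NRG1 fell from 1.42 and 1.26 CPM to 0.669 and 0.528 CPM (-1.18, SE 0.19, edgeR adjusted p = 0.000112). The treated libraries did not overlap Control for these 3 genes. In the same cells 3 of 5 primed-state markers rose, FN1 by 3.81, AXL by 3.03 and SERPINE2 by 1.83 on the log2 scale, with a list median of 1.83, and their part in the members' changes was not tested. EGFR in these cells was at 1.24 and 1.49 CPM in Control and 1.67 and 1.91 CPM with TGFB1, and its log2 fold change of 0.38 (SE 0.15) did not pass the test (edgeR adjusted p = 0.109).

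Within primed cells TGFB1 went with less EREG, AREG, NRG1 and ERBB3 and more EGFR: 1 of 6 members rose and 4 fell, where 13.3% of 10930 genes were called. EREG, AREG and NRG1 passed the low-count filter only through libraries without TGFB1, whereas TGFA, higher with TGFB1, did not pass it. The filter thus leaned towards members that fell, and no result is read from this count against that share. These primed cells were not the same clusters. With TGFB1 3254 of the primed cells were in cluster 04 and 80 in cluster 10, and in Control 11 were in cluster 04 and 248 in cluster 10, so treatment and cluster cannot be told apart. EREG was at 0 and 10.1 CPM in Control and 0.0994 and 0.537 CPM with TGFB1 (log2 fold change -3.83, SE 0.62, edgeR adjusted p = 1.0e-05), and AREG at 0.745 and 6.84 CPM against 0 and 0.313 CPM (-4.34, SE 0.75, edgeR adjusted p = 3.0e-05). For EREG the groups overlapped, and Control replicate r2 carried both calls. Its EREG rested on 25 UMIs in 7 cells and its AREG on 17 UMIs in 2 cells, and without this library the EREG change turned to 1.42 (edgeR adjusted p = 0.953) and AREG lost its call (adjusted p = 0.382). NRG1 was at 8.94 and 7.24 CPM in Control and 1.14 and 1.39 CPM with TGFB1 (-2.44, SE 0.52, edgeR adjusted p = 0.000561), and ERBB3 at 32.0 and 25.8 CPM against 13.7 and 16 CPM (-0.84, SE 0.20, edgeR adjusted p = 0.00184), both without overlap. EGFR was at 11.2 and 8.85 CPM in Control and 15.4 and 18.3 CPM with TGFB1 (0.89, SE 0.27, edgeR adjusted p = 0.0172). Each of these calls was lost when 1 library of either group was left out: NRG1 without Control r1 or TGFB1 r2, ERBB3 without Control r1 or TGFB1 r1, EGFR without Control r2, TGFB1 r1 or TGFB1 r2, and EREG and AREG also without TGFB1 r2. The EGFR call was lost in DESeq2 too (adjusted p = 0.271). TGFA, which was not tested here, had 2.98 and 1.61 CPM in Control and 4.42 and 4.92 CPM with TGFB1, and HBEGF, at 24.6 and 9.66 CPM in Control against 9.49 and 13.7 CPM with TGFB1, did not pass. In the same primed cells 3 of 5 primed-state markers rose and 1 fell, and 4 of 4 drug-susceptible markers fell (list median log2 fold change -0.97). The part of these in the members' changes was not tested.

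With TGFB1 the change differed between the states for 3 of 9 members, all in the negative direction, where 9.98% of 18502 genes were called. The test of this difference was added after the data had been seen. AREG, among the 9, had an SE of 32293.8, so its difference was not estimated. The state labels come from clustering the RNA under test. That clustering placed 3801 TGFB1 cells in drug-susceptible cluster 03 and 3254 in primed cluster 04. Pooled over libraries, these clusters stood at 110 and 13.6 CPM of ERBB3. The part of this labelling in the differences was not tested. ERBB3 rose in drug-susceptible and fell in primed cells, a difference in log2 fold change of -1.38 (SE 0.19, edgeR adjusted p = 6.7e-11). For EREG the difference was -3.11 (SE 0.99, edgeR adjusted p = 0.0217) and for NRG1 -1.31 (SE 0.46, edgeR adjusted p = 0.0465). The ERBB3 call was kept whichever library was left out, that of EREG turned to 7.48 without Control r2 (edgeR adjusted p = 0.771) and was lost without TGFB1 r1 (0.79), and that of NRG1 was lost without either Control or either TGFB1 replicate (0.155 to 0.603). That of EGFR, 0.60, did not pass (adjusted p = 0.296). Between the 2 primed clusters, pooled over libraries, cluster 04 had 17 CPM of EGFR, 13.6 of ERBB3, 4.74 of TGFA, 0.359 of EREG and 1.25 of NRG1. Cluster 10, present in every condition, had 11.4, 33.7, 1.16, 9.70 and 10.2 CPM of the same genes. EREG in cluster 10 was at 0.299 CPM in replicate r1 and 14.2 CPM in r2, a gap wider than that between the clusters in r1. Cluster 03, of drug-susceptible cells and mostly of TGFB1-treated libraries, had 110 CPM of ERBB3 and 1.56 CPM of TGFA.

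The TGF-beta receptor inhibitor lowered ERBB3 and raised HBEGF. Over all cells 1 of 9 members rose and 1 fell, where 2.53% of genes were called. In drug-susceptible cells 1 of 8 rose and 1 fell, where 2.81% were called. Drug-susceptible cells numbered 4058 and 3527 in the Control replicates and 5111 and 6002 with TGFBRi. Clusters 02, 08 and 09 held 1981, 1113 and 133 of the TGFBRi cells against 760, 367 and 285 of the Control cells. Treatment and cluster thus cannot be told apart there. ERBB3 fell from 60.5 and 62.0 CPM to 48.2 and 43.2 CPM over all cells (log2 fold change -0.41, SE 0.07, edgeR adjusted p = 0.000634) and from 61.0 and 63.2 CPM to 48.7 and 43.9 CPM in drug-susceptible cells (-0.41, SE 0.07, edgeR adjusted p = 0.000582). HBEGF rose from 6.76 and 6.54 CPM to 8.11 and 8.80 CPM over all cells (0.36, SE 0.09, edgeR adjusted p = 0.0447), and in drug-susceptible cells from 6.45 and 6.44 CPM to 7.97 and 8.56 CPM (0.37, SE 0.09, edgeR adjusted p = 0.0188). Neither gene overlapped its Control. The ERBB3 calls were lost without Control replicate r2 (adjusted p = 0.0596 and 0.0557) and without the replicate block (adjusted p = 0.0684 and 0.0551), and the HBEGF calls without Control replicate r2 (adjusted p = 0.777 and 0.491), without the block (0.382 and 0.245) and in DESeq2 (0.149 and 0.0953). Over all cells HBEGF also lost its call without either TGFBRi or either PI3Ki replicate. EREG, at 0.218 and 0.973 CPM, passed only when genes were not filtered or TGFBRi replicate r1 was left out. EGFR at 1.44 and 1.72 CPM, ERBB2 at 4.38 and 4.34, ERBB4 at 1.14 and 1.41, TGFA at 0.0848 and 0.103, NRG1 at 1.64 and 1.92 and AREG at 0 and 0.195 CPM did not pass the test in all cells. In primed cells 0 of 6 members were called by edgeR, where 0.375% of genes were, and 1 member, EREG, had an unadjusted p under 0.05, at 0 and 21.8 CPM against 0 and 10.1 CPM. The difference between states was called for 0 of 9 members, where 0.551% of genes were. AREG, among the 9, had no finite SE.

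The PI3K inhibitor lowered EGFR, TGFA and NRG1 and raised ERBB3, so over all cells 1 of 9 members rose and 3 fell, where 12.7% of genes were called. EGFR fell from 1.41 and 1.72 CPM to 0.712 and 0.817 CPM (log2 fold change -0.93, SE 0.15, edgeR adjusted p = 0.000225). TGFA fell from 0.141 and 0.162 CPM to 0.0285 and 0.00817 CPM, which were 2 and 1 UMIs (edgeR adjusted p = 0.00241). NRG1 fell from 1.55 and 1.45 CPM to 0.911 and 0.678 CPM (-0.85, SE 0.18, edgeR adjusted p = 0.00218). ERBB3, whose main effector is PI3K, rose from 60.5 and 62.0 CPM to 86.4 and 83.0 CPM (0.57, SE 0.06, edgeR adjusted p = 2.8e-06). No group overlapped its Control for these 4 genes, and the calls of TGFA and NRG1 were lost without PI3Ki replicate r2 (adjusted p = 0.13 and 0.157). ERBB2 at 3.77 and 3.95 CPM, ERBB4 at 1.12 and 1.34, HBEGF at 6.82 and 7.08, EREG at 0.171 and 0.18 and AREG at 0 and 0.147 CPM did not pass the test. In drug-susceptible cells, where 12.1% of genes were called, the same 4 members were called in the same directions. These cells again lay in different clusters, with 2239 PI3Ki cells in cluster 06, 286 in cluster 11 and 1873 in cluster 00 against 168, 9 and 2971 Control cells, so treatment and cluster cannot be told apart. EGFR was at 0.686 and 0.642 CPM (-0.96, SE 0.17, edgeR adjusted p = 0.00049), ERBB3 at 86.5 and 83.3 CPM (0.55, SE 0.07, edgeR adjusted p = 4.4e-06) and NRG1 at 0.915 and 0.618 CPM (-0.74, SE 0.17, edgeR adjusted p = 0.00504). There the calls of EGFR, TGFA and NRG1 were lost without PI3Ki replicate r2 (adjusted p = 0.0635, 0.335 and 0.160), those of TGFA and NRG1 also without Control r2 (0.212 and 0.121) and without the replicate block (0.0571 and 0.104), that of TGFA without PI3Ki r1 (0.0548), and that of NRG1 in DESeq2 (0.0699). Cluster 06 had 123 CPM of ERBB3 and 0 UMIs of TGFA. Primed-state markers also fell, 5 of 5 over all cells (list median log2 fold change -1.74) and 3 of 5 in drug-susceptible cells (-1.07). Of the drug-susceptible markers 2 of 4, PMEL and MLANA, rose in both sets and 0 fell. The part of these in the members' changes was not tested.

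The PI3Ki libraries held few primed cells. ERBB3 was at 77.1 and 52.9 CPM in them against 32.0 and 25.8 CPM in Control (1.03, SE 0.26, edgeR adjusted p = 0.0213), the 1 of 6 members called where 1.78% of genes were, and the call was lost without Control r2 or either PI3Ki replicate. EGFR, at 7.01 and 22.8 CPM against 11.2 and 8.85 CPM, did not pass (adjusted p = 0.404). Its change differed from that in drug-susceptible cells, by 1.87 on the log2 scale (SE 0.49, edgeR adjusted p = 0.0146). EGFR was the 1 of 9 members called, where 1.21% of genes were. AREG, among the 9, had no finite SE. The states were again labelled by clustering the same RNA, and the part of this in the difference was not tested. In PI3Ki primed cells EGFR had 2 UMIs in r1 and 22 UMIs in r2, 7 of them in 1 cell, and without PI3Ki r2 the difference was 0.30 (edgeR adjusted p = 1). The call was also lost without Control r2 (0.348), TGFB1 r1 (0.0905) or TGFB1 r2 (0.084). The PI3Ki replicates lay on either side of both Control replicates in primed cells.

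**Figure D5:**
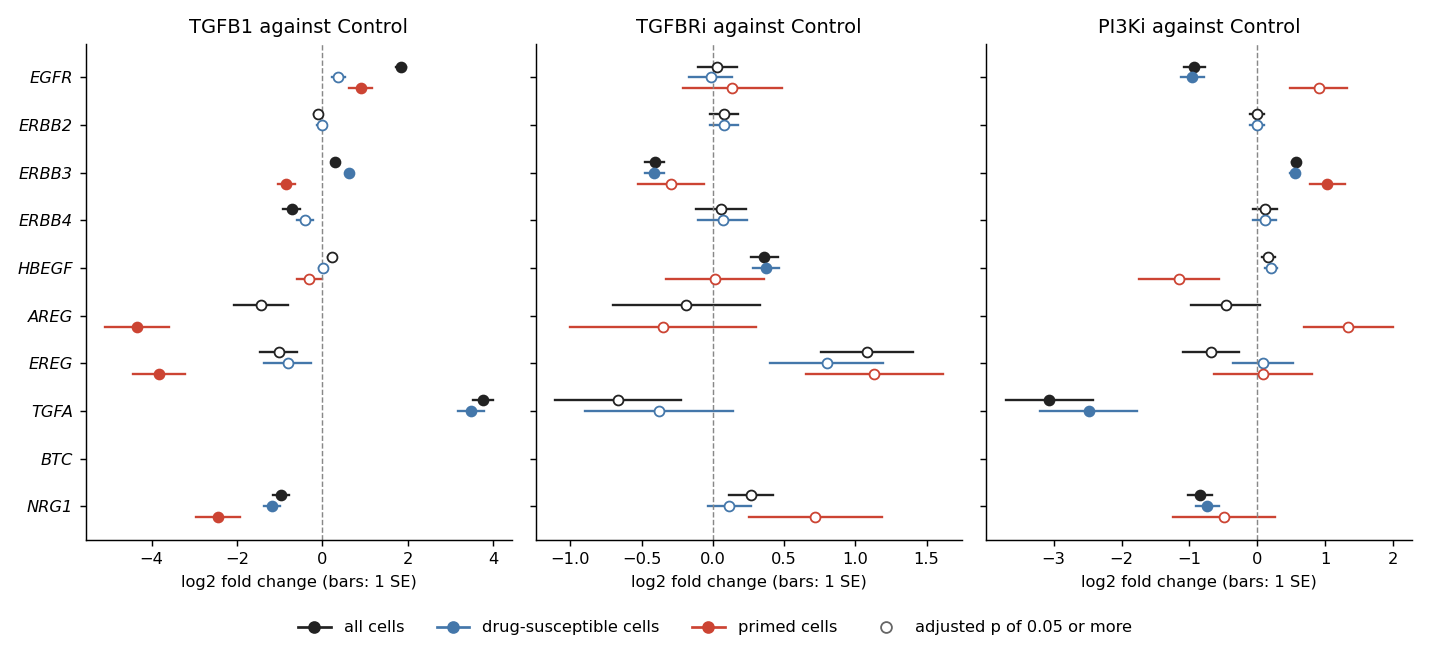
Log2 fold change of each tested member against Control, with 1 SE either way, for 3 treatments in all, drug-susceptible and primed cells, open symbols marking adjusted p at or above 0.05. ERBB3 with TGFB1 lies at 0.63 in drug-susceptible and -0.84 in primed cells.

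Among receptor inhibitors 5 of 8 rose and 0 fell with TGFB1 over all cells, ERRFI1 by 2.01, LRIG3 by 1.05, SOCS5 by 0.77 and LRIG1 by 0.65 on the log2 scale, where 29% of all genes were called in either direction. The median log2 fold change of the 8 was 0.59, against 0.0059 over all genes tested. In drug-susceptible cells 3 of 8 rose, LRIG3 by 1.08, CBLB by 0.37 and ERRFI1 by 0.32, with a list median of 0.075 where 14.9% of genes were called, and in primed cells 1 of 8 rose, LRIG1 by 1.74, with a list median of 0.064 where 13.3% were called. Beside the all-cell values, primed cells were 94 and 165 of the Control cells and 1577 and 1757 of the TGFB1 cells, as given above, and their part in those changes was not tested. Over all cells 4 of 5 primed-state markers also rose, FN1 by 4.42, AXL by 3.72, SERPINE2 by 2.15 and NT5E by 0.89 (list median 2.15), as did PECAM1, an endothelial marker and the 1 called of 2 genes tested from the list of other cell types, by 3.02 (edgeR adjusted p = 1.1e-10). The part of these in the changes was not tested either. Of 7 shedding proteases and cofactors 1, ADAM19, rose by 1.68 and 1, ADAM9, fell by 0.26 over all cells, and in drug-susceptible cells ADAM19, a metalloprotease, rose by 1.13. In the PI3K arm 2 of 10 genes rose with TGFB1 over all cells, among them PIK3R3 by 0.25, and 3 fell, among them PIK3R1 by 0.40 and PIK3CD by 0.28 on the log2 scale, with a list median of -0.06. Of 4 other ligands tested NRG2 rose by 0.33, while EGF fell by 0.64 and NRG3 fell by 0.59. Of 9 adaptors 3 rose, led by SOS1 at 0.48 and SHC1 at 0.36, and GAB2 fell by 0.71. The ERK output genes were called in both directions over all cells, 4 of 14 up with IER3 at 1.03 and 3 down. In primed cells 8 of 14 ERK output genes fell with TGFB1 and 0 rose, where 13.3% of genes were called in either direction, among them the feedback inhibitors SPRY1 (-1.48) and SPRY4 (-0.74), PHLDA1 (-0.95) and DUSP6 (-0.74), with the same split of clusters between the groups as above. The median log2 fold change of the 14 was -0.57, against -0.0006 over all genes tested in primed cells. With the PI3K inhibitor over all cells, where 12.7% of genes were called, 1 of 8 receptor inhibitors rose, CBLB by 0.46, and 2 fell, ERRFI1 by 0.70 and SOCS5 by 0.29 on the log2 scale. Of 7 shedding genes 2 fell, ADAM19 by 1.17 and ADAM9 by 0.50, and 0 rose. In the PI3K arm 1 of 10 rose, PIK3R3 by 0.24, and of 4 other ligands tested NRG3 rose by 0.49. The ERK output list had 2 of 14 higher and 3 lower. With the TGF-beta receptor inhibitor, where 2.53% of genes were called, 1 of 10 genes of the PI3K arm fell, PIK3R3 by 0.62, and 1 of 14 ERK output genes rose, EGR1 by 0.39.

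The chromatin of all 10 members was compared between the same sorts. The 10 genes held 164 regions with peaks in at least 3 libraries, 136 of them in introns, and 70 had peaks in all 12. Over these 70, 3 were higher and 1 lower in EGFR-High than in Mix, where 5.83% of all regions were called. In NGFR-High 7 were higher and 6 lower, where 12.2% were called, and in EGFR-NGFR-High 6 were higher and 3 lower, where 12.7% were called. Between EGFR-High and NGFR-High 2 were higher and 0 lower, where 0.697% were called. EGFR gave 3 of 10, 4 of 10, 4 of 10 and 1 of 10 of these calls, all higher. The rest lay in ERBB4, NRG1 and BTC, large genes apart from BTC, with 25, 21 and 1 regions tested. The single BTC region, in an intron, had fold enrichments of 37.6, 46.7 and 36.3 in Mix and 17.5, 26.7 and 20.7 in NGFR-High, and was lower there by 0.93 on the log2 scale (limma adjusted p = 0.00818) and in EGFR-NGFR-High by 0.82 (limma adjusted p = 0.0146). No region of ERBB2, ERBB3, HBEGF, TGFA or EREG passed the test in any comparison, with 4, 2, 2, 4 and 1 regions tested, and AREG had no region with peaks in all 12 libraries. At ERBB3, whose mRNA was far lower in primed cells, the 2 tested regions overlapped exons and were not called different between the sorts, each with 3 libraries. The nearer region began 1915 bases downstream of the outermost annotated start of the gene, the only start used here. Other ERBB3 starts were not placed, so whether a tested region holds one was not settled. A peak upstream of AREG, 4475 bases before its start, was called in 2 of 3 NGFR-High, 2 of 3 EGFR-NGFR-High, 0 of 3 EGFR-High and 0 of 3 Mix libraries. How many of all regions share this pattern was not counted. Among the other promoters matched in RefSeq, HBEGF held 5 GC boxes, ERBB4, AREG and BTC 1 each, EREG and ERBB2 0, and TGFA 4 in one window and 0 in another, and ERBB2 held 1 AP-1 motif. A second EGFR start window in RefSeq, chr7:55109589-55109888, held 0 GC boxes and 2 AP-1 motifs. An AP-1 motif was in 7.71% of all promoter windows. The promoters of ERBB3 and NRG1 were not matched.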

How the data were processed

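Single-cell libraries were made with the 10x 3′ kits and read as UMI counts, and the deposited counts came from Cell Ranger on hg38, where the authors aggregated runs without depth normalization and removed cells by gene number and mitochondrial share in Seurat. Clusters, cell-cycle phases and primed labels were taken from the deposited cell tables, the primed cells of the third experiment being its clusters 04 and 10. ATAC-seq followed the OMNI protocol on sorted cells. The authors aligned reads with Bowtie2 2.3.4.1, filtered them with SAMtools 1.1, removed duplicates and called peaks per library with MACS2 2.1.1.20160309, and the deposited peak files give a fold enrichment (a ratio over local background), a −log10 q value, a −log10 p value and a score per peak.

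Raw counts were summed per library or per library and state. They were tested with edgeR 4.0.16 (TMM, filterByExpr, quasi-likelihood F test, Benjamini-Hochberg adjustment over all genes, threshold 0.05) with treatment and replicate as terms, which leaves 3 residual degrees of freedom. The test of the difference between states used another edgeR model, on the sums per library and state. Its terms were library, state and state by treatment, with 4 residual degrees of freedom. Its prior degrees of freedom were infinite, so its p-values used spread shared between genes and not that of each gene. The replicates were paired because same-numbered samples deviated together from their group means in every pair of groups (r = 0.255 to 0.366). The pipeline was checked on simulated counts with 200 genes changed 4-fold, of which 100% were recovered in the TGFB1 comparison of all cells and 99.5% in that of primed cells. The changed genes were drawn from well-counted ones at a fixed dispersion. The check thus does not cover members with few UMIs, as in primed cells. ATAC regions were the merged peaks found in at least 3 of 12 libraries, and the log2 fold enrichment of regions with a peak in all 12 was centred per library and tested with limma 3.58.1. Regions were assigned to a gene within its body or 10000 bases upstream. Ratios between states carry 95% intervals of counting error, which do not cover spread between samples. Thinning drew 10000 UMIs per cell in the first experiment. Levels are CPM, and 3′ counts were not compared between genes.

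The members and gene lists were chosen with earlier results of these data known. The members are a fixed family, the lists held regulators and outputs of it, and up to 4 genes per list with the largest absolute changes were named, together with all members and genes that complete a small count. A result for 1 gene of the lists is not reported here. The alternatives were DESeq2 1.42.0, no low-count filter, no replicate block, equal cell numbers, cells with a lineage barcode, ratios within wells, stricter or imputed ATAC peaks, quantile normalization and leaving out each library. Doublets were not called beyond the authors' filter. Python 3.11.15 and R 4.3.3 were used.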

Additional observations from a re-analysis of the deposited data

Results flagged for a closer look

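Among the 20 groups of 8 wells examined, 1 for each member and state, 4 had a highest well that stood apart from the next by more than Dixon's 95% limit, where chance flags about 1 group in 20 of independent values. The wells are paired loadings of at most 4 cultures, so the limit is only a guide here. AREG in primed cells stood at 15.7 CPM in well 6, with the next well at 1.48 CPM. AREG in drug-susceptible cells stood at 0.267 CPM in the same well, with the next at 0.0218 CPM. A single primed cell of well 6 held 387 of its AREG UMIs. BTC in primed cells stood at 0.0907 CPM in well 6, with the next at 0.0298 CPM, and in drug-susceptible cells at 0.00596 CPM in well 4, where the other wells were at 0. The BTC levels rest on 5 UMIs in primed and 1 UMI in drug-susceptible cells, and a group with 1 UMI always exceeds the limit.

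The change with treatment differed between primed and drug-susceptible cells in a test of that difference for 4 members and treatments. The states were labelled by clustering the same RNA, and the part of this labelling in the differences was not tested. With TGFB1 the log2 fold change in primed minus that in drug-susceptible cells was -3.11 for EREG, -1.31 for NRG1 and -1.38 for ERBB3. With the PI3K inhibitor it was 1.87 for EGFR. Leaving out any 1 library kept the ERBB3 call, whereas EREG turned to 7.48 without Control r2, NRG1 lost its call when any 1 Control or TGFB1 library was left out, and EGFR fell to 0.30 without PI3Ki r2, whose primed cells held 22 EGFR UMIs. Primed cells of Control and of TGFB1 lay mostly in different clusters, 10 and 04, and the PI3Ki libraries held 25 and 70 primed cells.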

How the results depend on the processing

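Of 30 member calls in the RNA data, 4 of them in the test of the difference between states, 10 were kept under every alternative run, and of 28 in the ATAC data 4. Leaving out the replicate block kept 20 of the 26 treatment calls and lost 6, and moved the genes called with TGFBRi from 466 to 40 over all cells, from 503 to 47 in drug-susceptible and from 41 to 9 in primed cells. It moved those with PI3Ki from 2328 to 649, from 2170 to 570 and from 195 to 87, and those with TGFB1 in drug-susceptible cells from 2665 to 1189. Without the low-count filter TGFBRi gave 748 over all cells. DESeq2 gave 326 for TGFBRi in drug-susceptible cells, 693 for TGFB1 and 16 for TGFBRi in primed cells.

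Leaving out 1 library in turn gave 3164 to 6377 genes with TGFB1, 168 to 1146 with TGFBRi and 719 to 3298 with PI3Ki over all cells, then 988 to 3722, 206 to 1247 and 632 to 3286 in drug-susceptible cells, and 584 to 1726, 17 to 63 and 96 to 239 in primed cells. The lone sample left in an arm is then assumed to vary like the other groups. In primed cells with TGFB1 the log2 fold change of EREG ran from -4.06 to 1.42, the latter without Control replicate r2, and that of HBEGF from -1.26 to 0.57, turning without Control replicate r1 and, at 0.11, without TGFB1 replicate r1. Leaving libraries out of the test of the difference between states was chosen after seeing the data, and the EREG difference ran from -5.18 to 7.48. The cause was not tested.

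Setting absent ATAC peaks to the library minimum gave 15400 regions in NGFR-High, 19016 in EGFR-NGFR-High and 1223 between EGFR-High and NGFR-High, more regions being tested. Leaving out 1 replicate, which tests fewer libraries, gave 601 to 2312 in EGFR-High, 2002 to 7320 in NGFR-High, 3288 to 6793 in EGFR-NGFR-High, and 0 by limma between EGFR-High and NGFR-High, where 7376 to 10511 had an unadjusted p under 0.05. ATAC libraries with the same replicate number deviated together only weakly or not at all (r from -7.1e-06 to 0.174). A replicate block gave more regions in each comparison, 5730, 10900, 11247 and 817 against 4558, 9509, 9913 and 545, and kept 27 of 28 member calls.

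For the WM989 ratio of primed to drug-susceptible levels, the median within wells was 8.18 for EGFR, 0.803 for ERBB2, 79.6 for EREG and 17.8 for NRG1, and cells with a lineage barcode gave 14.1 for BTC. Leaving out a replicate gave 12.5 to 17.7 for EGFR, 0.890 to 0.911 for ERBB2, 0.0645 to 0.112 for ERBB3, 0.104 to 0.134 for ERBB4, 0.543 to 0.912 for HBEGF, 209 to 329 for AREG, 207 to 407 for EREG, 1.48 to 2.27 for TGFA and 26.3 to 53.0 for NRG1. For BTC, replicate r1 alone gave 0, and r2 alone gave no finite ratio, as its drug-susceptible cells held 0 UMIs. Unthinned shares of primed and drug-susceptible cells with a UMI were 78.2% and 14.5% for EGFR, 28.4% and 93.1% for ERBB3, 46.0% and 1.73% for EREG, and 44.1% and 3.94% for NRG1. Primed cells of the third experiment were few outside TGFB1, and genes under 1 CPM were counted by a few UMIs.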
